A study of Mus musculus with 18 samples.

Results

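Visceral endoderm cells and embryonic cells of the mouse at embryonic day (E) 6.75 were compared within the same libraries. Cells were chosen by 4 genes. A visceral endoderm cell had Ttr, Apoa1 and Spink1 summing to at least 20 of every 10000 transcripts, and an embryonic cell had these genes under 5 per 10000 and at least 1 transcript of Pou5f1. Of 543 E6.75 cells with at least 2000 transcripts, 39 met the visceral endoderm gate and 470 the embryonic gate. The remaining cells were 9 between the gates and 25 without Pou5f1. The 509 compared cells came from 972 kept cells in the whole series, which also holds E7.5 libraries.

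All E6.75 cells, in both gates, were from embryos labelled C57BL/6 WT (wild type), with no transgene or treatment named, and the tissue label reads whole embryo. The extraembryonic part had been cut away, each embryo was dissociated by itself, and cells were picked by hand into barcoded lysis buffer for CEL-Seq2, per the labels' protocols. CEL-Seq2 is a method that counts the 3′ ends of polyadenylated RNA with molecular identifiers. The 6 libraries had 96 cells each and are called by their labels, 1_10, 1_11, 2_9, 2_12, 2_13 and 2_14. Nothing says which embryo a cell came from or that the libraries hold separate embryos, so p-values speak only for these libraries. The edgeR fit of the genes pooled the spread over genes. Its p-values and standard errors (SE) therefore do not measure the spread of each gene by itself. They can be too small for a gene that varies more between libraries.

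The visceral endoderm is an epithelium that wraps the egg cylinder. It takes up maternal nutrients, secretes carrier proteins that the liver makes later, and sends signals to the epiblast, the layer that forms the embryo proper. Its anterior part secretes inhibitors of NODAL and WNT signalling and helps to set the head-to-tail axis.

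The visceral endoderm gate held 3 cells in 1_10, 3 in 1_11, 3 in 2_12, 8 in 2_13, 6 in 2_14 and 16 in 2_9. The embryonic gate held 71 to 87 cells per library. Sums over the visceral endoderm cells had 40054 to 413923 transcripts per library, and sums over the embryonic cells 2756971 to 5126203. On the scale used below, the share of nuclear transcripts scaled to 1000000 (CPM) with TMM scaling, 1 transcript was worth 2.80 to 19.6 CPM in a visceral endoderm sum and 0.199 to 0.386 CPM in an embryonic sum. Low levels are thus less finely resolved in the visceral endoderm, where 0 counts over all 6 sums allow up to 3.11 CPM. Spike-in RNA was present in 1_10 and 1_11 (86081 and 97057 transcripts) and at 16 or fewer transcripts in the other 4, and 0, 48 or all 96 of the barcodes in use were common to any pair of libraries. No library was left out.

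The genes that set the gates are a description only. Ttr encodes a carrier of thyroid hormone and retinol, Apoa1 an apolipoprotein and Spink1 a protease inhibitor. The lowest, median and highest library had 715, 1199 and 1700 CPM of Ttr, 745, 1200 and 1958 CPM of Apoa1 and 1623, 2329 and 2570 CPM of Spink1 in visceral endoderm cells. In embryonic cells the highest library had 11.5 CPM of Ttr, 13.6 CPM of Apoa1 and 18.4 CPM of Spink1. Each of the 39 cells had at least 1 transcript of each of the 3 genes. Pou5f1, a pluripotency gene, was at 13.6, 25.1 and 165 CPM in the visceral endoderm gate. In the embryonic gate it was at 301, 447 and 555 CPM. Of the 39 visceral endoderm cells, 24 had a transcript of it. The highest visceral endoderm value was that of 2_9, which also held the cell with the most Pou5f1, at 13 transcripts.

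The gate sum ran from 22.1 to 132 per 10000 among the 39 cells, with a median of 48.0. The cells nearest the upper threshold had 22.1, 23.2 and 24.0 per 10000 inside it and 17.8, 16.5 and 12 outside it. Those nearest the lower threshold had 4.71, 4.63 and 4.33 per 10000 below it and 5.63, 6.44 and 6.49 above it. Of the 470 embryonic cells, 159 had at least 1 transcript of a gate gene. The unused barcodes of an E6.75 library held at most 3 transcripts of any gate gene, out of 1154 to 58551 transcripts in all. Per 10000, the gate sum there was above that of the used barcodes in 2_12 (2.81 against 0.807) and 2_14 (2.86 against 1.78). In the other libraries it was below.

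The other defining markers of visceral endoderm were higher in the same gate. All 5 markers outside the gate genes (Afp, Apob, Amn, Cubn and Hnf4a) were called higher, beside 16.4% of all genes tested. They were at most 3.97 CPM in any embryonic library and passed the filter on low counts through their visceral endoderm level. That count is therefore no support for the label. In single cells, 38 of the 39 had transcripts of at least 2 of these markers, against 15 of the 470 embryonic cells. Of the 6 parietal endoderm markers, the 4 that were tested (Srgn, Lamb1, Sparc and Nid1) were also higher, and their list summed to 861 to 2127 CPM against 235 to 305 CPM. Thbd, a defining gene of parietal endoderm, had no transcript in the cells of either gate, so it does not separate them. Plat, the other untested marker, had transcripts in visceral endoderm cells. Of the 5 definitive endoderm markers, Sox17, Foxa2, Cer1 and Gsc were higher and Cxcr4 was not tested. That list summed to 285 to 767 CPM against 7.22 to 117 CPM.

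Markers of cells outside the endoderm differed by list. The 6 extraembryonic ectoderm markers summed to 0 to 143 CPM, against 84.2 to 248 CPM in embryonic cells, with Elf5 at 0. These ranges overlapped, and the 2 genes tested, Bmp4 and Sox3, were not called. The trophoblast list summed to at most 13 CPM, the blood and endothelium list to at most 13 CPM, with Hba-x, Hbb-bh1, Tal1 and Kdr at 0, and the maternal list to 0. The primitive streak list summed to 26.0 to 240 CPM against 69.6 to 574 CPM, again with overlap. Of its 5 tested genes 2 were lower, beside 20.2% of all genes tested, and Mixl1, Evx1 and Fgf8 were not called. T, its defining gene, was found in 3 of the 39 cells and in 149 of the 470, so cells with T are part of the embryonic gate. The epiblast list summed to 416 to 942 CPM against 1567 to 2241 CPM. Of its 5 tested genes 4 were lower and Fgf5 was higher, and the part of these transcripts in the lower folds was not tested.

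Of 8987 genes tested, 1470 were higher in visceral endoderm cells (16.4%) and 1819 were lower (20.2%), at an adjusted p under 0.05 in edgeR's quasi-likelihood test with the library as a block. The median log2 fold change of all genes tested was -0.12. All 6 visceral endoderm values lay above all 6 embryonic values for 665 genes (7.4% of those tested), and below them for 1051 genes (11.7%). These are the backgrounds for each count below and for those of the marker lists above. A gene near 0 in embryonic cells was tested only where visceral endoderm cells had enough of it. Counts of higher genes in lists of such genes are thus partly set by the filter on low counts. A gene that goes with the gate genes in a cell differs because of how the cells were chosen, so the folds describe the 2 gates.

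The 12 highest folds among the genes that qualified to be named were, in order, Prss12, Foxq1, Afp, Apob, Cer1, Ctsh, Pla2g12b, Cubn, Apoa4, Fgb, Hnf4a and Hkdc1. Prss12, a secreted serine protease gene, was at 39.1, 171 and 271 CPM (lowest, median and highest library) in visceral endoderm and at 0, 0.263 and 0.696 CPM in embryonic cells. Its log2 fold change was 9.19 ± 0.42 (SE; adjusted p = 8.67e-102). Foxq1, a forkhead transcription factor gene, was at 117, 290 and 537 CPM against 0, 0.297 and 1.20 CPM, a log2 fold change of 9.14 ± 0.32 (adjusted p = 1.97e-178). Hkdc1, a hexokinase family gene, had the lowest fold of the 12, at 7.95 ± 0.50 on the log2 scale. For each of the 12 the lowest visceral endoderm library lay above the highest embryonic library. With a gate of 50 per 10000, Foxq1 had a log2 fold change of 8.33, Afp of 8.14, Apob of 7.54, Pla2g12b of 7.36 and Apoa4 of 7.17.

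Secreted carrier proteins were the group with the largest list median. All 5 tested genes of the plasma-type list were higher, with a median log2 fold change of 7.21, and none of the 5 overlapped between gates. Afp, Fgb, Trf and Rbp4 were at most 5.42 CPM in any embryonic library and passed the filter on low counts through visceral endoderm cells. The count and the list median are thus partly set by that filter. Alb, the main plasma protein of later life, and Serpind1, Ahsg and Gc had no transcript in visceral endoderm cells, and 11 of the 16 genes were too low to test. Afp, the fetal albumin-like carrier, was at 314, 664 and 1389 CPM in visceral endoderm and at 0, 1.48 and 2.09 CPM in embryonic cells, a log2 fold change of 8.93 ± 0.25 (SE; adjusted p = 6.82e-270). With limma on the mean over cells, the log2 fold change of Afp was 7.88 (adjusted p = 1.62e-06). Its transcripts were found in 37 of the 39 cells. Fgb, the fibrinogen beta chain, had a log2 fold change of 8.0 ± 0.52, and Trf, the transferrin gene, of 7.21 ± 0.35. Rbp4, the plasma carrier of retinol, was at 136, 352 and 897 CPM against 2.61, 3.67 and 5.42 CPM, with a log2 fold change of 6.60 ± 0.23.

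Lipoprotein genes followed the same direction. Of 11 tested genes of the apolipoprotein and lipid list, 10 were higher, Dgat1 was not called at a log2 fold change of -0.00, and the list median was 6.00. Apob, the structural protein of large lipoproteins, was at 362, 484 and 936 CPM in visceral endoderm and at 0.327, 1.29 and 3.39 CPM in embryonic cells (log2 fold change 8.35 ± 0.24 SE, adjusted p = 6.76e-251). Mttp, which loads lipid onto the Apob protein, had a log2 fold change of 6.00 ± 0.32. Pla2g12b, which acts in lipoprotein secretion, Apoa4 and Apom, 2 further lipoprotein genes, had log2 fold changes of 8.05 ± 0.49, 8.0 ± 0.51 and 7.64 ± 0.34. Apoe was also measured in embryonic cells, at 89.9, 105 and 123 CPM, but reached 2036, 2373 and 3837 CPM in visceral endoderm (log2 fold change 4.58 ± 0.18).

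**Figure D1:**
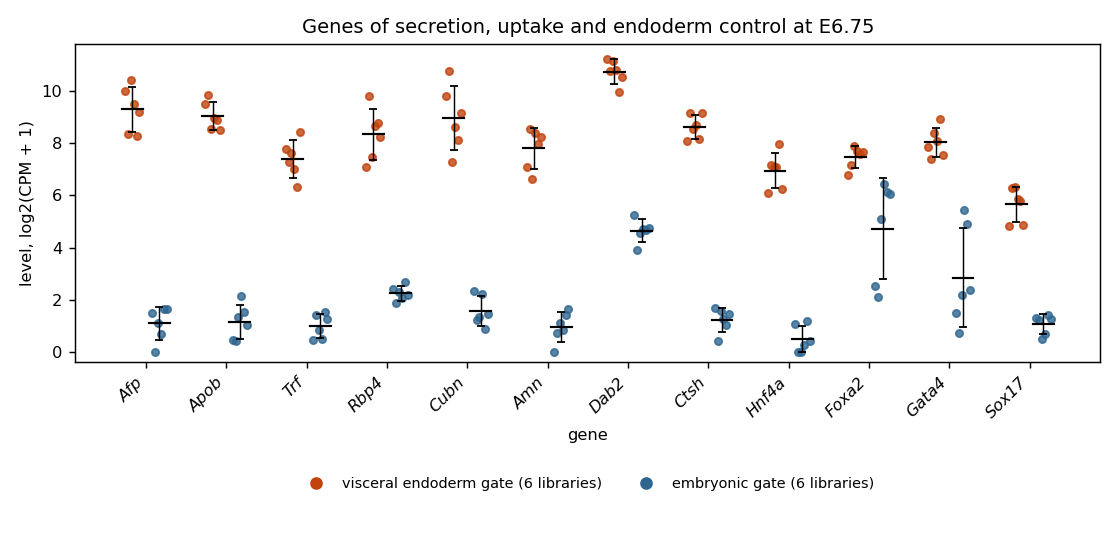
Level of 12 genes in each gate, as log2(CPM + 1), with 1 point per library, the mean as a bar and the SD as whiskers. In all 12 the 6 visceral endoderm libraries lie above the 6 embryonic libraries, and Foxa2 and Gata4 spread widely among the embryonic libraries.

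The promoter stretches of Afp and Apob are shown because their transcripts rose together and each has a single entry in the promoter table. They are the 250 bases before the RefSeq start site in build GRCm38.p6, both on the plus strand: chr5:90490464-90490713 for Afp and chr12:7977427-7977676 for Apob. Capitals mark a match to a motif of an endoderm factor.
Afp: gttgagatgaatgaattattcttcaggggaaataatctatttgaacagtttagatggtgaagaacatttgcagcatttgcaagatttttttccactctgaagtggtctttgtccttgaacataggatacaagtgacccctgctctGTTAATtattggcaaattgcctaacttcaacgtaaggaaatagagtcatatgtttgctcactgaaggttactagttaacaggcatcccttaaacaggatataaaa
Apob: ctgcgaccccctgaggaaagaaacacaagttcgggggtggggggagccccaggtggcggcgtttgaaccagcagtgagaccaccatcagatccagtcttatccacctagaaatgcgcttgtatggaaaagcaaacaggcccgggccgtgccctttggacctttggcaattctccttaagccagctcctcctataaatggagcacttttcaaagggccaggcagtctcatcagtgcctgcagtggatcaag

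The letters searched on both strands were GTTAAT, which is part of the site of the HNF1 factors, CAAAGTCCA for the factor HNF4, TGTTTAC for the FOXA factors, and for the family of GATA factors the letters AGATAA. No 2 of these motifs hold one another. Afp held GTTAAT, starting 105 bases before the start site, and Apob held none of the 4. Of the 32851 promoters of this length in the table, 6.43% held GTTAAT, 0.384% the HNF4 letters, 3.17% the FOXA letters and 9.99% the GATA letters. None of the 4 was found in the same window of Apoe or Rbp4, whose entry nearest the GENCODE start was used. A match describes letters and not a bound site.

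Genes of uptake at the apical surface split. Of 10 endocytic genes, 8 were higher and 2 lower, with a median log2 fold change of 1.47. Cubn and Amn, which encode the 2 parts of the receptor cubam, and Dab2, its clathrin adaptor, had the largest folds of the list. Cubn was at 156, 481 and 1756 CPM in visceral endoderm and at 0.834, 1.64 and 3.97 CPM in embryonic cells (log2 fold change 8.02 ± 0.24 SE, adjusted p = 8.79e-231). Amn had a log2 fold change of 7.80 ± 0.30 and Dab2, at 991, 1791 and 2439 CPM against 14, 25 and 37.5 CPM, of 6.14 ± 0.19. Lrp2, the megalin receptor that works with cubam, was also called, but its libraries overlapped, at 33.0, 86.5 and 455 CPM against 50.7, 59.9 and 81.7 CPM. Its log2 fold change was 0.78 ± 0.23 (adjusted p = 0.00256), and it was higher in 4 of 6 libraries. Tfrc, the transferrin receptor, fell by 1.84 on the log2 scale. It was at 19.6, 39.6 and 91.0 CPM against 144, 149 and 191 CPM, with no overlap.

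Of 19 tested lysosomal genes, 15 were higher, Psap was lower at -0.73, and 3 were not called, among them Ctsd and Cd164. The median log2 fold change was 1.61. The cathepsins Ctsh, Ctsc and Ctsl and the protease Lgmn had the largest folds, at 8.12 ± 0.25, 4.67 ± 0.19, 3.46 ± 0.17 and 5.01 ± 0.20 (SE). Ctsh was at 271, 392 and 572 CPM in visceral endoderm and at 0.327, 1.57 and 2.16 CPM in embryonic cells. Ctsl, by contrast, was well above 0 in both gates, at 626, 1458 and 1808 CPM against 109, 123 and 134 CPM.

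All 7 tested genes of the brush border and apical scaffold list were higher, with a median of 2.30. Myo6, a motor of endocytic vesicles, had a log2 fold change of 6.07 ± 0.21 and Vil1, the microvillus protein villin, of 6.04 ± 0.34, while Cgn and Eps8 had 2.66 ± 0.22 and 2.30 ± 0.36. Of 9 tested solute carriers, 8 were higher and 1 lower, with a median of 3.58. The zinc carriers Slc39a5 and Slc39a8, the sulfate carrier Slc13a4 and the iron exporter Slc40a1 had log2 fold changes of 7.10 ± 0.50, 4.76 ± 0.29, 5.66 ± 0.36 and 3.60 ± 0.39. The glucose carriers moved apart: Slc2a3 was at 724, 1876 and 3252 CPM against 163, 185 and 371 CPM, while Slc2a1 fell by 0.92 on the log2 scale, from 250, 333 and 364 CPM in embryonic cells to 97.8, 172 and 234 CPM.

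Of 13 tested junction and keratin genes, 9 were higher and none was lower, with a median of 2.47. The keratins Krt19, Krt8 and Krt7 and the desmosome gene Dsp had log2 fold changes of 4.62 ± 0.43, 4.18 ± 0.19, 3.17 ± 0.43 and 3.51 ± 0.29. Krt8 was at 293, 487 and 616 CPM against 18.8, 29.2 and 32.3 CPM. Cdh1, the E-cadherin gene, was at 196, 340 and 417 CPM against 289, 338 and 464 CPM and was not called (log2 fold change -0.07 ± 0.17, adjusted p = 0.800), and Ocln, Tjp1 and Epcam were not called. Of 9 tested basement membrane genes, 7 were higher, with a median of 1.82. Nid1, Col4a2, Col4a1 and Sparc had log2 fold changes of 4.70 ± 0.39, 3.89 ± 0.26, 3.73 ± 0.19 and 2.35 ± 0.17. Col4a1 and Col4a2 overlap at their ends on opposite strands, and the counting's use of strand is not given in the sources used here. Fn1, the fibronectin gene, was at 71.8 ± 34.7 CPM against 92.1 ± 60.8 CPM (SD, n = 6 libraries) and was not called (adjusted p = 0.362).

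Krt19 was at 3.31 with the gate of 50 and at 5.24 in the same libraries at the gate of 20. In 1_10 and 1_11 alone the calls for Krt19 (2.37, adjusted p = 0.255), Krt7 (1.4, adjusted p = 0.524) and Eps8 (2.00, adjusted p = 0.138) were lost, and that for Eps8 also with the gate of 50 (1.53, adjusted p = 0.0805).

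**Figure D2:**
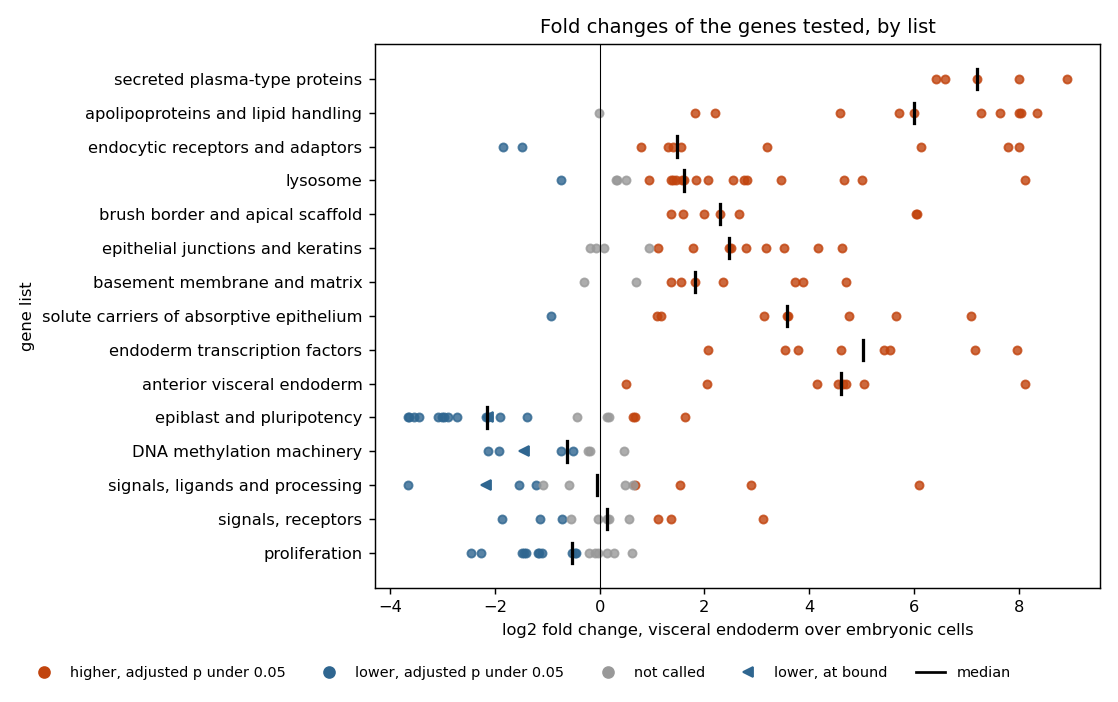
Log2 fold change (x axis) of each tested gene in the 15 lists (y axis). Red marks higher calls, blue lower calls, grey genes not called, triangles the bound for the 3 genes with no transcript in visceral endoderm cells, and black bars the list medians. List medians run from 7.21 for secreted plasma-type proteins to -2.14 for epiblast and pluripotency genes with Gdf3 at its bound.

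All 8 tested endoderm transcription factor genes were higher, with a median log2 fold change of 5.02 and no overlap between gates for any of them. Hnf4a, a nuclear receptor that drives lipid and plasma protein genes, was at 67.8, 137 and 248 CPM in visceral endoderm and at 0, 0.274 and 1.25 CPM in embryonic cells (log2 fold change 7.97 ± 0.44 SE, adjusted p = 2.71e-70). Foxa1 had a log2 fold change of 5.54 ± 0.43 and Sox17 of 5.42 ± 0.46. Gata4 was at 169, 249 and 489 CPM against 0.653, 3.82 and 42.1 CPM (4.62 ± 0.23), and Gata6 at 53.3, 86.5 and 127 CPM against 0, 1.35 and 26.9 CPM (3.53 ± 0.36). Foxa2, which is also a gene of the anterior streak, was at 108, 199 and 235 CPM against 3.27, 49.1 and 86.4 CPM (2.07 ± 0.22, adjusted p = 1.65e-19). These 3 folds moved with the cells and libraries used. Against embryonic cells that lacked T, Mesp1 and Mixl1, they were 7.07 for Gata4, 7.20 for Gata6 and 4.43 for Foxa2, and Foxa1 was at 6.35. With the gate of 50, Foxa2 was at 0.94, Gata6 at 2.38 and Foxa1 at 4.42. In the same libraries at the gate of 20, Foxa2 was at 1.43 and Gata6 at 2.40, and Foxa1 moved by under 1.5 times. Without 2_13, Gata4 was at 5.44, Gata6 at 4.63 and Foxa1 at 6.28, and without 2_14 Gata6 was at 4.25. All were still called higher. The embryonic level of Foxa2 was 4.69 and 3.27 CPM in 1_10 and 1_11 and 33.2 to 86.4 CPM in the other 4 libraries.

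In single cells, Hnf4a was found in 32 of the 39 visceral endoderm cells (82.1%, exact 95% binomial interval 66.5% to 92.5%) and in 8 of the 470 embryonic cells (1.70%, 0.738% to 3.33%). Gata4 was found in 34 of 39 and 75 of 470, Foxa2 in 29 of 39 and 96 of 470, Gata6 in 22 of 39 and 45 of 470, and Sox17 in 17 of 39 and 14 of 470. The visceral endoderm cells had the lower median depth, 23368 transcripts against 44639. With every cell thinned to 5000 transcripts, which left out 1 visceral endoderm and 32 embryonic cells, the share was 39.5% against 0.685% for Hnf4a, 57.9% against 4.11% for Gata4 and 10.5% against 0.457% for Sox17. These intervals cover counting error only.

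Genes of the anterior visceral endoderm were higher as well: 8 of 8 tested, with a median log2 fold change of 4.60. Cer1, a secreted NODAL, BMP and WNT inhibitor, was at 19.6, 91.3 and 363 CPM in visceral endoderm and at 0, 0.363 and 1.04 CPM in embryonic cells (log2 fold change 8.12 ± 0.45 SE, adjusted p = 7.40e-72). Dkk1, a WNT inhibitor, was at 27.1, 68.8 and 254 CPM against 0, 2.14 and 7.30 CPM (4.70 ± 0.39). Lefty1, a NODAL inhibitor, was at 53.3, 167 and 569 CPM against 7.09, 9.52 and 14.3 CPM (4.16 ± 0.27). None of these 3 overlapped between gates. Lefty2, a close copy of Lefty1 with which reads could be shared, went the other way, at 0, 0 and 22.4 CPM against 30.6, 71.9 and 97.9 CPM.

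Lhx1, a LIM homeobox gene, was at 130, 643 and 1341 CPM against 0.980, 5.78 and 105 CPM (log2 fold change 5.05 ± 0.21), and Sfrp1, a secreted WNT-binding protein gene, at 650, 930 and 1438 CPM against 32, 35 and 53.6 CPM (4.65 ± 0.18). Otx2, a head homeobox gene that epiblast also transcribes, was at 416, 676 and 1329 CPM against 453, 511 and 558 CPM. Its ranges overlapped and it was higher in 4 of 6 libraries, with a log2 fold change of 0.50 ± 0.16 (adjusted p = 0.00971). The call for Otx2 was lost under 8 settings: without 2_13 (0.35, adjusted p = 0.156), without 2_14 (0.25, adjusted p = 0.363), in 1_10 and 1_11 alone (0.11, adjusted p = 0.846), with the gate of 50 (0.21, adjusted p = 0.503), without a filter on low counts (0.34, adjusted p = 0.154), with cells thinned to 2000 transcripts (0.63, adjusted p = 0.111), in limma (0.54, adjusted p = 0.0611) and in DESeq2 (0.51, adjusted p = 0.0882). Eomes, transcribed in both tissues, was at 156, 318 and 504 CPM against 124, 245 and 512 CPM and was not called (0.22 ± 0.18, adjusted p = 0.367). It was called higher, at 1.43 (adjusted p = 1.98e-11), against embryonic cells that lacked T, Mesp1 and Mixl1. Against those cells Lhx1 was at 7.41 and Dkk1 at 6.68. With the gate of 50, Lhx1 was at 4.08, Dkk1 at 3.87 and Lefty1 at 2.70. In the same libraries at the gate of 20, Lhx1 was at 3.92 and Dkk1 at 3.61, and Lefty1 moved by under 1.5 times. Lhx1 was at 5.74 without 2_13 and at 5.65 without 2_14, and Dkk1 at 5.35 without 2_14.

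**Figure D3:**
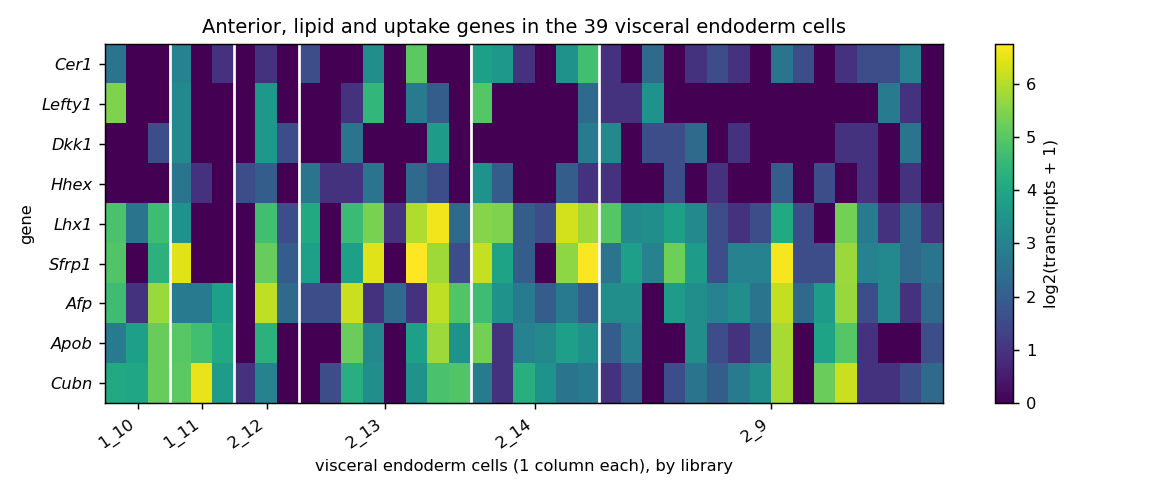
Transcripts of 9 genes (rows, as log2(transcripts + 1)) in each of the 39 visceral endoderm cells (columns), grouped by library between white lines. Cer1 appears in 23 cells and Afp in 37, and cells with and without Cer1 occur in every library.

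The anterior genes were unevenly spread among the 39 cells. Cer1 was found in 23 cells, Hhex, an anterior homeobox gene that was too low to test, in 21, Dkk1 in 15 and Lefty1 in 14. At least 1 transcript was found in 9 embryonic cells for Cer1, in 12 for Hhex, in 32 for Dkk1 and in 97 for Lefty1. Sfrp5, another WNT-binding protein gene too low to test, was found in 24 of the 39 cells and 21 of the 470. Of the 39 cells, 6 had none of these 4 genes, 10 had 1, 11 had 2, 7 had 3 and 5 had all 4. The median depth was 11687 transcripts in the 6 cells with none, which came from 4 libraries, then 16162, 26300, 39039 and 23368 in those with 1, 2, 3 and all 4. It was thus lowest in the cells with none but did not rise at each step, and the part of depth was not tested. Thinned to 5000 transcripts, Cer1 was found in 34.2% of 38 visceral endoderm cells, Dkk1 and Lefty1 each in 18.4% and Hhex in 13.2%.

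Afp goes with the genes that chose the cells, and 37 of the 39 cells (94.9%) had it. It was found in 22 of the 23 cells with Cer1 (95.7%) and in all 6 cells with none of the 4 anterior genes, and nothing is read from these overlaps. Cer1 and Lefty1 were found together in 11 cells and Cer1 and Dkk1 in 10. Lhx1 was in 34 of the 39 cells, 22 of them with Cer1. Among the 39 cells the level ran from 0 to 33.0 per 10000 transcripts for Afp (median 3.69), from 0 to 16.0 for Apob (median 2.28) and from 0 to 34.9 for Cubn (median 2.02).

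Epiblast and pluripotency genes were mostly lower. Of 20 tested, 14 were lower, 3 were higher and 3 were not called, and the median log2 fold change was -2.45 (-2.14 with Gdf3 at its bound). Nanog was at 0, 15.6 and 39.1 CPM in visceral endoderm and at 91.5, 137 and 155 CPM in embryonic cells, a log2 fold change of -3.01 ± 0.32 (SE; adjusted p = 1.13e-19). Sox2 was at 0, 9.80 and 30.9 CPM against 97.2, 107 and 196 CPM (-2.73 ± 0.32). Neither gene overlapped between gates, and all 14 lower genes of the list were without overlap. Tdgf1, the NODAL coreceptor Cripto, Foxd3, a forkhead gene of naive and primed epiblast, and Slc7a3, an arginine carrier, had log2 fold changes of -3.66 ± 0.26, -3.64 ± 0.44 and -3.54 ± 0.27. Gdf3, a NODAL-related ligand, had 0 transcripts in visceral endoderm and 286 in embryonic cells, and was at least 4.36-fold lower against a floor of 3 counts over the gate. The calls for Gdf3 and for Fgf4, an epiblast ligand gene with no visceral endoderm transcript, were lost with the gate of 50 (adjusted p = 0.0835 and 0.0858) and in 1_10 and 1_11 alone (adjusted p = 0.210 and 0.255).

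The list did not move as a block. Fgf5 was at 221, 305 and 435 CPM against 175, 197 and 246 CPM (0.68 ± 0.18), and Lin28a, a blocker of let-7 processing, at 367, 491 and 526 CPM against 284, 295 and 386 CPM (0.63 ± 0.17). Both were higher in 6 of 6 libraries, with overlapping ranges. Dppa5a, Sall4 and Eras were not called.

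The 12 lowest folds among the genes that qualified to be named were Prps2, Tdgf1, Foxd3, Fst, Uchl1, Etv1, Slc7a3, Cxcl12, Bcl11a, Bcat1, Mid1ip1 and Snrpn. Prps2, a nucleotide synthesis enzyme gene, was at 0, 9.22 and 14 CPM against 129, 154 and 194 CPM, a log2 fold change of -3.88 ± 0.35 (SE; adjusted p = 2.07e-27). Fst, which encodes the activin inhibitor follistatin, was at 0, 0 and 16.5 CPM against 47.4, 72.1 and 190 CPM (-3.64 ± 0.38). Cxcl12, a chemokine gene, was at 0, 0 and 11.2 CPM against 57.1, 65.6 and 85.9 CPM (-3.44 ± 0.46). Snrpn, an imprinted gene that shares its locus with Snurf, was at 18.1, 42.3 and 92.6 CPM against 422, 490 and 640 CPM (-3.20 ± 0.23). In all 12 the highest visceral endoderm library lay below the lowest embryonic library, and Foxd3, Uchl1, Etv1, Cxcl12 and Bcl11a rested on 6 visceral endoderm transcripts each.

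The size and order of these lowest folds depended on 2_9, which holds 16 of the 39 visceral endoderm cells. All 6 transcripts of Etv1 were in 2_9. Without that library the log2 fold change was -5.21 for Bcl11a, -4.50 for Foxd3, -4.48 for Tdgf1, -4.44 for Bcat1 and for Fst and -4.33 for Cxcl12, and that of Sox2 was -3.55. Fst was at -1.89 against embryonic cells that lacked T, Mesp1 and Mixl1, and at -5.64 with the gate of 50, where Uchl1 was at -4.59 and Mid1ip1 at -4.71. With the gate of 10, Bcat1 was at -2.53 and Sox2 at -2.05. The call for Mid1ip1 was lost with cells thinned to 2000 transcripts (-1.79, adjusted p = 0.0821).

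Of 8 tested genes of DNA methylation, 5 were lower and none was higher, with a median of -0.63. Dnmt3b, a de novo methyltransferase gene, was at 624, 805 and 2202 CPM in visceral endoderm and at 3608, 4179 and 5328 CPM in embryonic cells (log2 fold change -2.14 ± 0.17 SE, adjusted p = 1.98e-34). The highest visceral endoderm value was that of 2_9, and the gates did not overlap. Dnmt3a, the second such enzyme, was at 39, 169 and 345 CPM against 600, 739 and 830 CPM (-1.93 ± 0.19). Dnmt3l, their cofactor, had 0 transcripts against 179, at least 2.73-fold lower, and its call was lost in DESeq2 (adjusted p = 0.0526), with gates of 10 (adjusted p = 0.0565) and 50 (adjusted p = 0.125) and in 1_10 and 1_11 alone (adjusted p = 0.395). Tet1 fell by 0.74 on the log2 scale with overlapping ranges, a call lost with thinned cells (-0.46, adjusted p = 0.625) and in 1_10 and 1_11 alone (-0.79, adjusted p = 0.156), and the maintenance enzyme gene Dnmt1 was not called at -0.23.

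**Figure D4:**
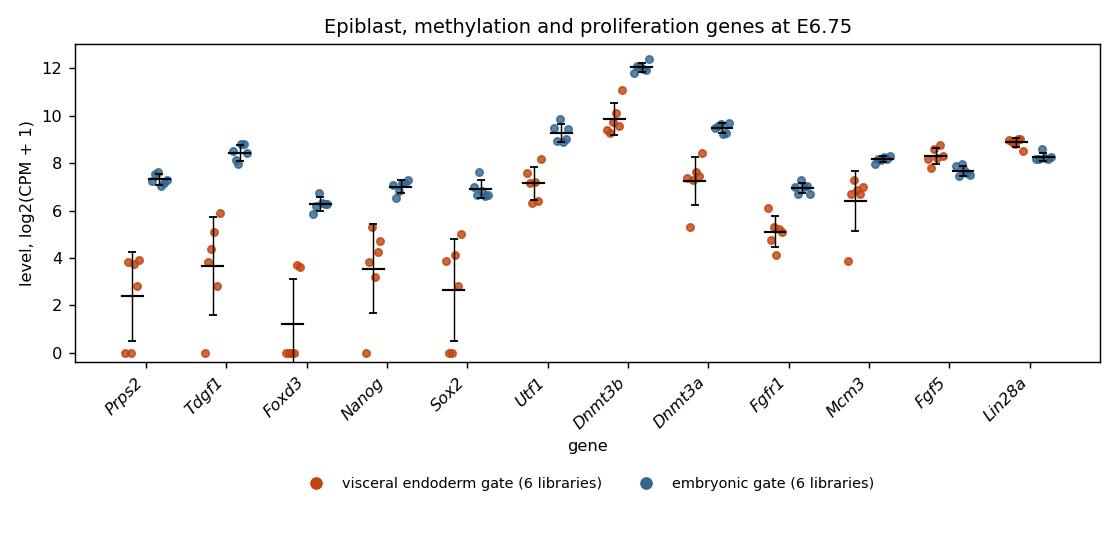
Level of 12 genes in each gate, as log2(CPM + 1), with 1 point per library, the mean as a bar and the SD as whiskers. The visceral endoderm libraries lie below the embryonic ones for Prps2 to Mcm3, while Fgf5 and Lin28a overlap.

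Genes for signals between the tissues were called in both directions. Of 12 tested ligand and processing genes, 4 were higher and 4 lower. Bmp2 was at 72.5, 93.0 and 352 CPM in visceral endoderm and at 0, 0.905 and 3.55 CPM in embryonic cells (log2 fold change 6.09 ± 0.39 SE, adjusted p = 7.64e-53), and Vegfa at 33.0, 79.7 and 104 CPM against 3.59, 8.88 and 10.4 CPM (2.89 ± 0.37). Fgf4 had 0 transcripts in visceral endoderm against 294, at least 4.48-fold lower. Nodal was at 84.1 ± 36.6 CPM against 68.6 ± 16.4 CPM (SD, n = 6 libraries) and was not called. Of 11 tested receptor genes, 3 were higher and 3 lower. That is near the shares of all genes tested, 16.4% and 20.2%, and nothing is read from the count. The FGF receptors were opposite: Fgfr2 was at 16.5, 35.8 and 67.8 CPM against 2.43, 4.11 and 10.8 CPM (3.11 ± 0.44), and Fgfr1 at 36.6 ± 17.3 CPM against 124 ± 19.6 CPM (SD, n = 6 libraries; -1.86 ± 0.27). Bmpr2, a BMP receptor gene, had a log2 fold change of 1.35 ± 0.30 and Acvr2b, an activin receptor gene, of -1.14 ± 0.27. Bmpr2 was higher in 6 of 6 libraries without overlap, and its call was lost with the gate of 50 (0.88, adjusted p = 0.214), in limma (1.09, adjusted p = 0.0949) and in 1_10 and 1_11 alone (1.84, adjusted p = 0.0597). Acvr2b was lower in 5 of 6 libraries with overlapping ranges, and its call was lost in limma (-0.74, adjusted p = 0.185) and in 1_10 and 1_11 alone (-1.01, adjusted p = 0.323). In those 2 libraries the call for Fgfr1 was also lost (-1.36, adjusted p = 0.119). Bmp2 was at 7.68 against embryonic cells without T, Mesp1 or Mixl1 and at 4.86 with the gate of 50. In the libraries of that gate, the gate of 20 gave 5.14.

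Of 17 proliferation genes, 11 were lower and none was higher, with a median log2 fold change of -0.53. Mcm3 and Mcm2, parts of the replication helicase, had log2 fold changes of -1.48 ± 0.21 and -1.44 ± 0.21. The cyclin D genes Ccnd1 and Ccnd2, which act at entry into the cycle, had -2.28 ± 0.24 and -2.46 ± 0.55. Mcm3 was at 13.6, 110 and 156 CPM against 250, 288 and 315 CPM, and Ccnd1 at 0, 25.4 and 107 CPM against 198, 219 and 261 CPM, neither with overlap. With cells thinned to 2000 transcripts the calls were lost for Mcm3 (-1.09, adjusted p = 0.121), Mcm2 (-1.15, adjusted p = 0.117) and Ccnd1 (-1.23, adjusted p = 0.112). Ccnd2 rested on 6 visceral endoderm transcripts with overlapping ranges, and its call was lost in 1_10 and 1_11 alone (-0.99, adjusted p = 0.763). Without 2_9 the log2 fold change was -3.11 for Ccnd1 and -3.57 for Ccnd2. The mitotic genes Mki67, Cdk1 and Ccnb2 were not called, at -0.20, -0.08 and 0.27.

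Visceral endoderm cells held fewer transcripts than embryonic cells of their library. The log2 of the median per cell was 14.53 ± 0.34 against 15.29 ± 0.52 (SD, n = 6 libraries), a mean difference of -0.76 ± 0.36, and was lower in 6 of 6 libraries. Flipping the signs of the 6 paired differences, an exact permutation test (two-sided), gave p = 0.0312, the smallest that 6 pairs allow. Adjusted over 3 values it was 0.0469. Without cells deeper than 3 times the median of their library, the difference was -0.61 over the 6 libraries (unadjusted exact permutation p = 0.094). That setting took the embryonic cells of 2_9 from 71 to 51. In 1_10 and 1_11, the libraries with spike-in RNA, the median number of transcripts per spike-in transcript was 24.6 and 19.6 in the 3 visceral endoderm cells of each and 41.2 and 41.3 in the embryonic cells. Ribosomal protein genes took 7.84% ± 2.37 of transcripts against 10.9% ± 1.45 (SD, n = 6), again lower in 6 of 6 libraries, with the same exact permutation p of 0.0312 and 0.0469 adjusted.

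The mitochondrial share was 18.8% ± 8.11 in visceral endoderm against 16.1% ± 2.12 (SD, n = 6 libraries) and was higher in 3 libraries and lower in 3 (exact permutation p = 0.406). It was 29.8% and 26.7% in 1_10 and 1_11, above their embryonic cells at 17.5% and 18.8%, and 8.47% to 18.8% in the other 4 libraries. The difference was 12.3 and 7.91 percentage points in the 2 libraries with spike-in RNA and between -5.18 and 4.08 points in the others. Counts of genes were therefore also taken within each set, where 2728 genes were called among the 4 libraries without spike-in RNA and 1066 among the 2 with it. No gene called both there and over all 6 libraries changed sign. Each set is part of the 6 libraries, so this is not an independent check.

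**Figure D5:**
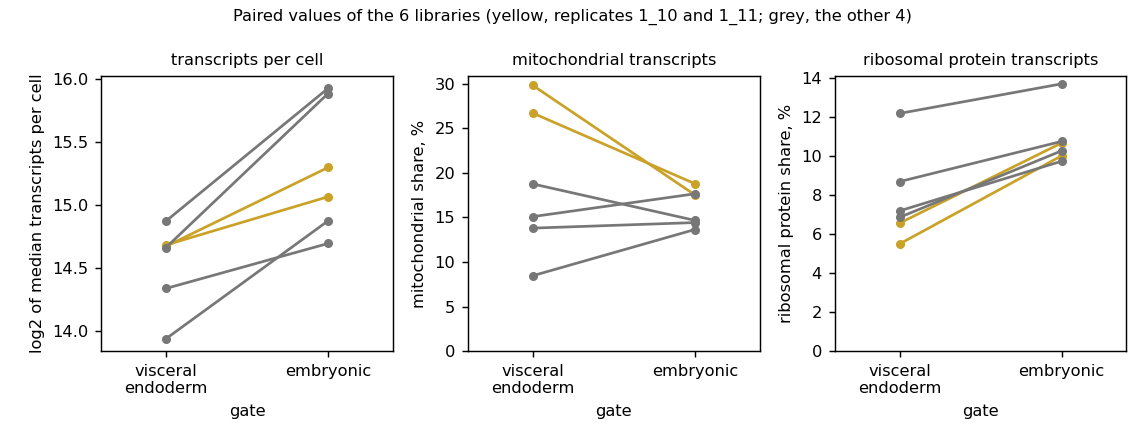
Median transcripts per cell (log2), mitochondrial share and ribosomal protein share (percent) in the 2 gates, with 1 line per library. All 6 lines rise from visceral endoderm to embryonic cells in the left and right panels, and 3 of 6 do in the middle panel.

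At E7.5 the same gate was nearly empty. It took 2 of 429 kept cells (0.466%, exact 95% binomial interval 0.0565% to 1.67%), against 39 of 543 at E6.75 (7.18%, 5.16% to 9.69%). The E7.5 cells were sorted rather than picked and were cut from the embryo at another level, so stage and collection cannot be told apart. With 2 cells there is no comparison of gates at E7.5.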

How the data were processed

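Single-cell CEL-Seq2 data of 6 E6.75 libraries were used, and the E7.5 libraries for 1 share. The deposited values are expected counts of transcripts per gene and barcode, which the values show the authors corrected for collisions among 4096 identifiers. The submitters' processing notes name bcl2fastq 2.17.1.14 and BWA 0.6.2-r126. The build, annotation and use of strand are not given in the sources used here. Transcripts exclude spike-ins and mitochondrial genes. The 96 barcodes in use held 98.9% to 100.0% of each E6.75 library.

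Expected counts were rounded and summed per library and gate (at least 3 cells each). The sums were fitted with edgeR 4.0.16 in R 4.3.3 (TMM, filterByExpr, quasi-likelihood test, library block, Benjamini-Hochberg at 0.05), without the 3 gate genes and Pou5f1. A library holds both gates, which is the pairing. The code was tested on simulated data. Doublets were not called, since cells had been picked by hand. As an alternative, cells deeper than 3 times the median of their library (1 visceral endoderm, 25 embryonic) were left out.

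The members, gates and lists were chosen with earlier results of these data known. Named genes were the 12 highest and 12 lowest log2 fold changes among called genes with at least 50 CPM in the higher gate, 1 sign in all libraries and at least 4 transcripts in the lower gate, plus up to 4 called genes with the largest change per list and 18 defining genes. Unnamed gene models were left out. DESeq2 1.42.0 and limma 3.58.1 were used in alternatives. A few members of these lists are not reported here.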

Additional observations from a re-analysis of the deposited data

Results flagged for a closer look

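In 171 groups of 6 libraries (each of 81 named genes in each gate, and the 3 per-cell measures), 10 held a value far from the other 5. Chance flags about 1 in 20 groups. In visceral endoderm cells these were Lefty1 at 569 CPM in 1_10, Dkk1 at 254 CPM and Bmp2 at 352 CPM in 2_12, and Etv1 at 16.8 CPM and Dnmt3b at 2202 CPM in 2_9. The visceral endoderm sums of 1_10 and 2_12 come from 3 cells each. In embryonic cells they were Sox2 at 196 CPM and Fgfr2 at 10.8 CPM in 2_12, Apom at 3.48 CPM in 2_9 and Vegfa at 3.59 CPM in 1_11. The ribosomal protein share of embryonic cells was 13.7% in 2_9.

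At E7.5, outside the comparison, 1 cell of replicate 12 had 40.0 and 1 cell of replicate 6 had 82.2 transcripts of the gate genes per 10000. The cell of replicate 12, with 47518 transcripts, had 217 of Apoe, 38 of Dab2, 14 of Amn and 8 of Hnf4a. It also had 11 of Apob, 3 of Cubn, 8 of Foxa2, 7 of Cer1 and 6 of Sox17, but none of Afp or Foxq1. The cell of replicate 6, with 4516 transcripts, had 12 of Apoe, 2 of Dab2, 2 of Afp and 1 of Apob. It had 1 of Foxq1, 2 of Cer1 and 2 of Sox17, but none of Amn, Hnf4a, Cubn or Foxa2.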

How the results depend on the processing

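The count of 3289 called genes stayed within 1.5 times under 13 other settings, and fell to 2166 with a visceral endoderm gate of 50 per 10000 (3 libraries), 2022 with limma on the mean over cells, 236 with cells thinned to 2000 transcripts (1699 genes tested) and 1066 with the prefix 1 libraries alone, a setting chosen after seeing the data. Leaving out 1 library gave 2639 to 3229 calls. Without the replicate block for library it was 3229, of which 2985 were shared with the blocked fit. Of the genes called in both, 3 changed sign at the gate of 50 and none under any other setting.
Over 81 named genes and all settings, 1754 of 1788 outcomes were unchanged, 33 lost the call, 1 gained it and none reversed. Of the 33 lost calls, 12 were with prefix 1 alone, 6 at the gate of 50 and 6 with thinned cells. The fold moved by over 1.5 times in 169 of the 1788, among them 41 with limma, 36 with prefix 1, 21 at the gate of 50, 12 against embryonic cells without T, Mesp1 or Mixl1, 11 with at least 5 cells per gate, 11 without 2_9, 10 with thinned cells (25 genes tested) and 10 in DESeq2. It did so for 4 genes without 2_13, for 3 without 2_14 and for none without 1_10, 1_11 or 2_12. The lower number of transcripts per cell had unadjusted exact permutation p above 0.05 at the gate of 50 (-1.12), at 5000 transcripts (-0.93), without deep cells (-0.61) and with prefix 2 alone (-0.89). Without 1 library it was -0.85 to -0.67. The lower ribosomal protein share did so at the gate of 50 (-2.59), at 5000 transcripts (-2.88) and with prefix 2 alone (-2.38), and was -3.33 to -2.73 without 1 library. These settings other than the loss of deep cells have 5 or fewer libraries, which cannot give p under 0.05.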

Other observations

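By transcript number, the 12 genes with the highest visceral endoderm level among those called higher in every library, a choice made after their values were seen, were Actb, H19, Amot, Emb, Apoe, Fth1, Car4, Slc2a3, Dab2, Ctsl, Wbp5 and Slc16a1. H19, an imprinted noncoding RNA gene, was at 5696 ± 2181 CPM in visceral endoderm against 220 ± 221 CPM in embryonic cells (SD, n = 6 libraries), a log2 fold change of 5.05 ± 0.19 (SE). Its imprinted neighbour Igf2, a growth factor gene, had a log2 fold change of 4.86. Amot, a regulator of the Hippo pathway, was at 3542 ± 1312 CPM against 71.0 ± 15.9 CPM (5.59 ± 0.19). Slc16a1, a lactate carrier gene, had a log2 fold change of 4.17 ± 0.18 and Fth1, the ferritin heavy chain gene, of 1.43 ± 0.16.

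The 9 cells between the gates had 5.63 to 17.8 gate transcripts per 10000, and 6 of them had Pou5f1. Pooled, they had 105 CPM of Afp and 652 CPM of Dab2 without TMM scaling, against 615 and 1577 CPM in the visceral endoderm cells. The 25 cells with few gate transcripts and no Pou5f1 were shallow, with a median of 4732 transcripts, and had 173 CPM of Elf5, 96.0 CPM of Cdx2 and 133 CPM of Tfap2c, genes of extraembryonic ectoderm, against 3.66, 2.08 and 8.09 CPM in the embryonic gate. Elf5 was found in 4 of these 25 cells.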
